A study of Homo sapiens with 5 samples.

Results

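The regions described here are clusters of distal H3K27ac peaks, which are stretches of the genome where several peaks lie near each other and away from the starts of protein-coding genes. A peak of the authors' deposited table was called distal if its center lay more than 2.5 kb from every protein-coding transcription start site (TSS) of GENCODE release 44 on chromosomes 1 to 22 and X. Distal peaks were joined if the gap between neighbors was at most 5 times that distance, and joined regions with 3 or more peaks were kept as clusters. This yielded 487 clusters with 2058 peaks, out of 8485 distal peaks and 20087 peaks in the whole table.

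The cells were HCT116 CMV-osTIR1 RAD21-mAC, a derivative of a human colorectal carcinoma cell line in which RAD21 has a degron tag and osTIR1, the receptor for auxin, is expressed from a CMV promoter, in both groups alike. Every culture received 0.1% DMSO over 6 h. IFN-β at 1000 unit/ml was then added to the treated group for 1 h and to the control group not at all, in order to compare histone acetylation with and without the cytokine. There were 2 H3K27ac ChIP-seq libraries per group and 1 input library, each made from fixed cells, and the sample titles place the IFN-β libraries at 60 min and the control libraries at 0 min, so that the groups may also differ by 1 h of culture. For each peak the table holds a log2 value per group, taken from its mean normalized reads, and no value per library, so that no value below has an SD between replicates and no difference was tested against the spread between libraries.

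Enhancers are DNA elements that raise transcription of genes at a distance, and acetylation of histone H3 at lysine 27 marks those that are active, together with active promoters. Dense runs of such elements, often called super-enhancers or stretch enhancers, tend to lie beside genes that define the identity or growth of a cell. IFN-β acts through the transcription factor complex ISGF3, which binds interferon-sensitive response elements (ISRE), most often close to the promoters of interferon-stimulated genes.

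To show what these elements look like, the central 300 bases of 5 peaks are printed from the plus strand of GRCh38. They comprise the strongest control peak of the 3 clusters with the highest summed control signal, and the peak with the highest change in MACF1 and SPATS2, which are among the clusters with the highest change of those at or above the median control signal. Capitals mark matches, on either strand, to any of 12 short motifs that are spelled out with the sequence features further on.
IER5L-NTMT1, chr9:129483045-129483344, outside protein-coding genes, no match: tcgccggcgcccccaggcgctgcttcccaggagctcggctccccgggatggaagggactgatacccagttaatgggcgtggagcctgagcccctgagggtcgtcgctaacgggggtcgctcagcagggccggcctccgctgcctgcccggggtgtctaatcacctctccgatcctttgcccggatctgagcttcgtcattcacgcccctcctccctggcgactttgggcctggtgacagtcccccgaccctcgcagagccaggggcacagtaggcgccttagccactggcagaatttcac
CPOX, chr3:98555877-98556176, intronic, ISRE core and FOX: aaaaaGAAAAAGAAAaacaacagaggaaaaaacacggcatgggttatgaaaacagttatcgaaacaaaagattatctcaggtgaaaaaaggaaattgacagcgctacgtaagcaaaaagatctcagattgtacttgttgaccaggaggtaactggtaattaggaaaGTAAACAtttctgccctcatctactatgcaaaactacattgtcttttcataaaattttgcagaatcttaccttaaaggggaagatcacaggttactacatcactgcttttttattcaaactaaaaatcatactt
KRR1-PHLDA1, chr12:75712623-75712922, outside protein-coding genes, no match: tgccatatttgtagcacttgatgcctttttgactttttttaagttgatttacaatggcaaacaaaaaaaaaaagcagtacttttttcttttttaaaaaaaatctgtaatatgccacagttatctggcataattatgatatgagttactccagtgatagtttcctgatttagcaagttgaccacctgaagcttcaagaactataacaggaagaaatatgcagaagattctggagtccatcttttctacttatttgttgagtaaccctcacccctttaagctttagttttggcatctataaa
MACF1, chr1:39394764-39395063, intronic, AP-1: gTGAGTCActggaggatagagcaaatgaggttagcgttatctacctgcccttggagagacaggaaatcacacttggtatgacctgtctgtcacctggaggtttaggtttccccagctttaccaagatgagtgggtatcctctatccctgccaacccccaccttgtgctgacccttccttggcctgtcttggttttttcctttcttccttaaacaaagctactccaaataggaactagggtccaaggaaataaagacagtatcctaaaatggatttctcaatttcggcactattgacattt
SPATS2, chr12:49507203-49507502, intronic, no match: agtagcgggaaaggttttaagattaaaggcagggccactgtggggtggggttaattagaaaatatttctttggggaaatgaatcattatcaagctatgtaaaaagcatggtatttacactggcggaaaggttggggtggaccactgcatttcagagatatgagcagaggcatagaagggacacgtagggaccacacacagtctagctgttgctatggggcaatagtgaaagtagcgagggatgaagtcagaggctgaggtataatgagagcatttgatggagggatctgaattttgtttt
The CPOX peak had 244 mean normalized reads in control cells and 127 after IFN-β, and the MACF1 peak had 49.2 and 55.7. The SPATS2 peak had 27.47 and 44.02 reads.

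Most clusters were small. There were 248 clusters of 3 peaks, 111 of 4 and 56 of 5, while 16 held 10 or more and the largest held 18. Clusters spanned between 3.33 kb and 78.8 kb with a median of 15.5 kb, and the median gap between neighboring peaks was 3.19 kb. They held 24.3% of the distal peaks but 30.2% of the control signal of distal peaks, and 9.05% of the control signal of the whole table. The remaining distal peaks were 4705 single peaks and 861 pairs.

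Acetylation was spread unevenly over the clusters. The summed control signal ranged from 2.67 to 794 mean normalized reads with a median of 121, and the median after IFN-β was 84.9. The 20 clusters with the highest control signal held 15.3% of the clustered signal, and the top 122 clusters held 53.5%. When all joined distal regions were ranked by control signal and cut where the scaled curve reaches a slope of 1, as is usual for super-enhancers, 519 regions lay above the cut-off of 106 reads, of which 286 were clusters, 127 were pairs and 106 were single peaks. With the IFN-β signal, scaled to its own maximum, the cut-off was 119 reads, and 190 regions lay above it. Of these, 151 were clusters, all 151 of which were also above the control cut-off. The cut-off was thus higher although the median signal was lower, so that these counts do not give a number of clusters lost.

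**Figure D1:**
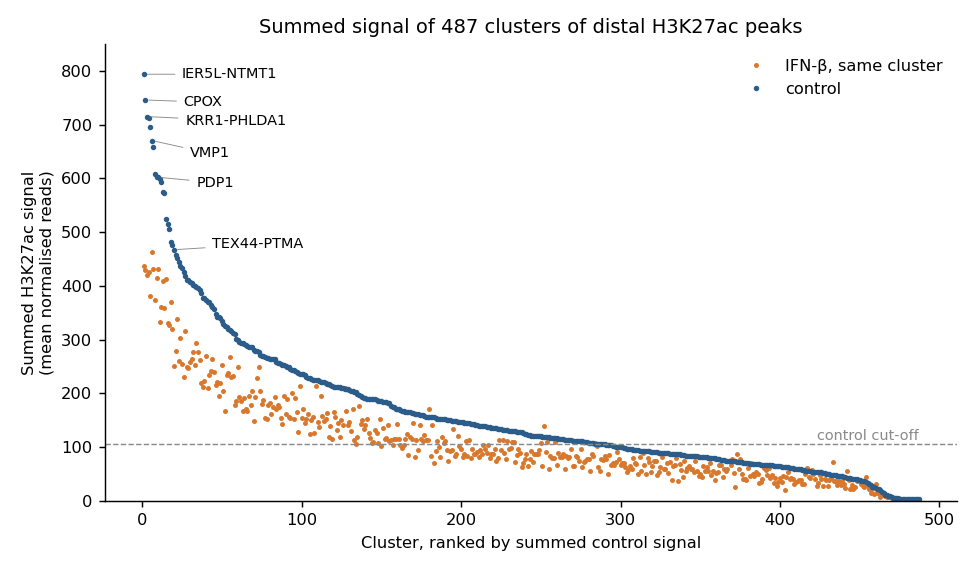
Summed H3K27ac signal (mean normalized reads, linear axis) of the 487 clusters, ordered by rank in control cells, with control values in blue and IFN-β values of the same cluster in orange. The curve falls from 794 reads at IER5L-NTMT1 to 467 at the 20th cluster and lies under the dashed control cut-off of 106 reads for the weaker clusters.

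Clusters are named here by the protein-coding gene they overlap, or otherwise by the protein-coding genes with the nearest starts on either side, and a name does not mean that the gene is a target. A gene body was overlapped by 253 clusters and 234 lay between genes. The nearest protein-coding start was a median of 36.1 kb from the edge of a cluster, and more than 100 kb away for 124 clusters. Not every clustered peak lay far from every start, since 426 of the 2058 (20.7%, in 234 clusters) were within 2.5 kb of the start of a noncoding or other transcript, which the rule did not exclude. These 426 peaks had a median control signal of 22.2 reads against 22.9 for the rest, a median GC content of 49.4% against 44.1%, and the same median change of -0.53.

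Acetylation was lower after IFN-β in most clusters, as it was over the whole table. The change is given as the log2 of the summed IFN-β signal over the summed control signal. Its median was -0.54 over clusters, with an interquartile range of -0.72 to -0.39, while the median log2 change of all 20087 peaks was -0.69. Of the 487 clusters, 350 (71.9%) lay above this table median, as did 49.1% of all peaks. The change was above 0 in 16 clusters, while 5.93% of all peaks were above 0, and it was below -1 in 15 clusters, while 17.4% of all peaks were. The sign of these changes rests on the scaling of the groups, since after centering on the table median 350 clusters are above 0. A cluster sums several peaks and so varies less than a peak, which is why these shares are set side by side and not tested.

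An error from counting alone can be estimated if the lowest value of each group is read as 1 read in each of its 2 libraries, and it is given below as a counting SE on the log2 scale. It does not cover the spread between libraries. Its median over clusters was 0.125, against an SD of 0.274 of the changes among clusters. The SD of the changes narrowed from 0.369 in the weakest to 0.181 in the strongest of 4 groups of 121 or 122 clusters by control signal, and the counting SE narrowed from 0.195 to 0.0821. The median change fell over the same groups, from -0.42 in the weakest to -0.61 in the strongest. In the weakest and the strongest group, 93 of 122 and 84 of 122 clusters lay above the table median. Control signal both sets these groups and divides the change, so that part of the fall can come from the grouping, which was not tested. The weakest group also holds the clusters described next, whose change is fixed at -0.42.

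The lowest value of the table touched the weakest clusters. In 17 clusters with 86 peaks, every peak stood at the lowest value of both groups, so that their change is fixed at -0.42 by the scaling of the groups and carries no information on IFN-β. They lay on chromosome 9 (6 clusters), chromosome 17 (5), chromosome X (3), chromosome 7 (2) and chromosome 5 (1), and the cluster with the second most peaks, 16 between PLS3 and AGTR2, was among them. Without these clusters 333 of 470 (70.9%) lay above the table median, and the median change was -0.54.

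The comparison with other peaks was made per peak. The median change was -0.53 for clustered distal peaks, -0.59 for other distal peaks and -0.75 for the 11551 peaks near a protein-coding start. Summed over all peaks of a class, the change was -0.56 for clustered, -0.57 for other distal and -0.76 for start-proximal peaks. The clustered and other distal peaks thus lay close together, and both stood above start-proximal peaks. A change above 0 was seen in 190 clustered peaks (9.23%), 10.5% of other distal peaks and 2.80% of start-proximal peaks. Among peaks with at least 10 control reads, these shares were 6.36%, 6.29% and 1.65%. A change below -1 was seen in 12.2% of clustered, 17.9% of other distal and 18.0% of start-proximal peaks.

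**Figure D2:**
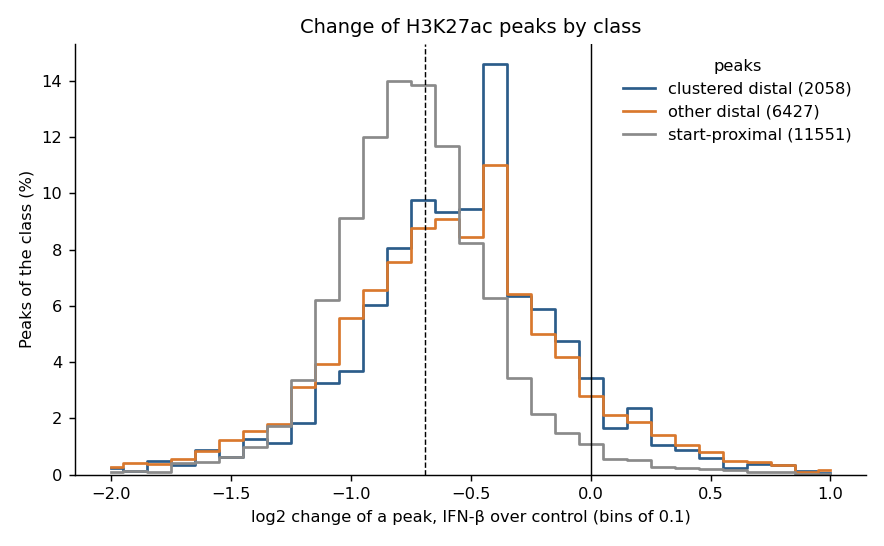
Share of the peaks of each class (percent) by log2 change in bins of 0.1, for 2058 clustered distal, 6427 other distal and 11551 start-proximal peaks, with a solid line at 0 and a dashed line at the table median of -0.69. Both distal classes lie to the right of start-proximal peaks, with medians of -0.53 and -0.59 against -0.75, and the step near -0.4 holds the peaks at the lowest value of both groups, whose change is -0.42.

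GC content differed between these classes, and the change was lower in peaks of high GC content. The median GC content within 500 bp of the center was 45% in clustered, 47.6% in other distal and 64.0% in start-proximal peaks. Among clustered peaks, the median change was -0.51 below 40% GC and stayed between -0.515 and -0.50 in the bins from 40% to 55%. It was -0.625 between 55% and 60% GC. At 60% GC or more it was -0.67 for clustered, -0.74 for other distal and -0.78 for start-proximal peaks. In peaks below 40% GC it was -0.44 for other distal and -0.53 for start-proximal peaks. The part of GC content in the difference between classes was not tested.

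Neighboring peaks were compared with each other in their change. The median absolute difference in change between neighboring clustered peaks of the same cluster, taken where both had at least 10 control reads, was 0.31 (n = 1282 pairs), against 0.37 for neighboring distal peaks not in the same cluster (n = 4993). These values include counting error. All peaks of a cluster were above the table median in 130 clusters and below it in 34, and 323 had peaks on either side or at it. Every peak was above 0 in 2 clusters, and no peak was above 0 in 346. The strongest peak held a median of 47.2% of the control signal of its cluster.

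The 20 clusters with the highest control signal were lower after IFN-β without exception. Their changes ranged from -0.90 to -0.34 with a median of -0.66, and 11 lay above the table median. Their counting SE was between 0.05 and 0.07, and 12 of their 198 peaks were above 0. The order was largely kept, as 19 of the 20 were also among the 20 highest after IFN-β. The exception was the cluster between TEX44 and PTMA, which encodes prothymosin alpha, a nuclear protein of dividing cells, and it moved from rank 20 to rank 37.

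The highest summed signal was found on chromosome 9 between IER5L and NTMT1, an enzyme that methylates protein amino termini (chr9:129476552-129507520). Its 8 peaks summed to 794 reads in control cells and 437 after IFN-β, a change of -0.86 ± 0.05 (counting SE). The strongest peak, of which the center is printed above, had 298 and 160 reads. It had a GC content of 70.4% and lay 0.257 kb from a start of the long noncoding RNA LINC00963, so that it resembles a promoter in position and base composition. The other peaks were also near starts, as all 8 lay within 2.5 kb of the start of a noncoding or other transcript, at most 1.55 kb away. All 8 peaks were lower, with changes between -1.44 and -0.51.

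The second cluster overlapped CPOX, which encodes an enzyme of heme synthesis, and ended close to the start of the gene (chr3:98537443-98588313). Its 12 peaks summed to 746 reads in control cells and 430 after IFN-β, with a change of -0.80 ± 0.05. It was among the clusters whose peaks differed most, from -0.26 in a peak of 46.9 and 39.1 reads to -2.61 in a weak peak of 16.3 and 2.68 reads.

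The third cluster lay in the gene-poor stretch between KRR1, a ribosome assembly factor, and PHLDA1, a gene known to be induced by ERK signaling (chr12:75712272-75791090). Its 14 peaks summed to 715 reads in control cells and 421 after IFN-β, with a change of -0.76 ± 0.05. This stretch held 5 clusters in all, with 47 peaks and the highest summed signal of any pair of flanking genes, 2033 reads in control cells and 1333 after IFN-β. Their changes ran from -0.76 in the third cluster to -0.46 in the cluster closest to PHLDA1. That last cluster, of rank 175, held a peak of 83.3 and 70.0 reads (-0.25) beside a peak of 14.8 and 2.01 reads (-2.88).

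**Figure D3:**
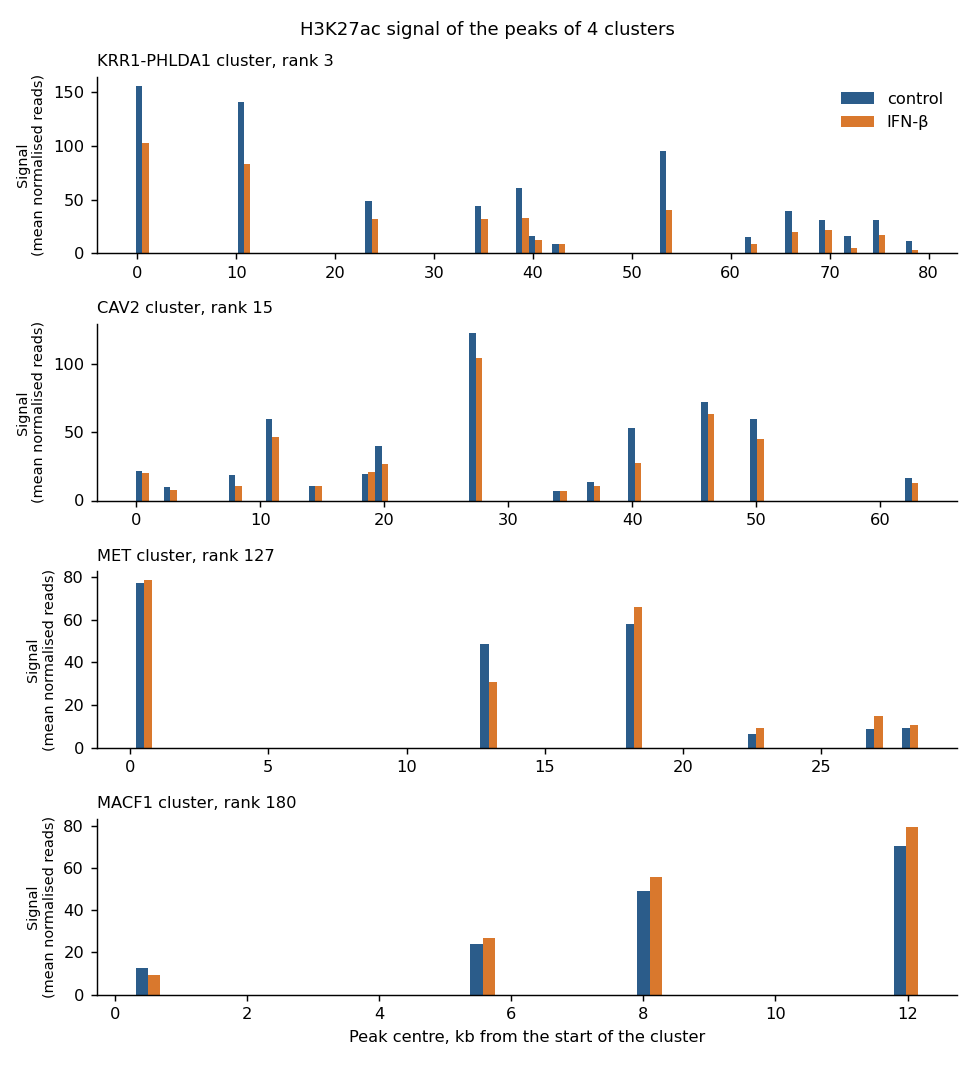
Mean normalized reads of each peak (bars, control in blue and IFN-β in orange) along 4 clusters, by the distance of the peak center from the start of the cluster in kb. Every bar pair is lower after IFN-β in KRR1-PHLDA1, 12 of 14 in CAV2, 1 of 6 in MET and 1 of 4 in MACF1.

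Several leading clusters held named noncoding genes, and for others the distance to one is given. The cluster within VMP1, a gene of autophagy, lay 43.0 kb from the microRNA gene MIR21, and with 670 and 463 reads (-0.53 ± 0.05) it was the strongest of all clusters after IFN-β. The cluster between KLF14 and MKLN1 held LINC-PINT and lay 46.3 kb from MIR29B1, with 658 and 432 reads (-0.61 ± 0.05). The NANOS3 cluster covered MIR181C and MIR181D and lay 5.85 kb from MIR23A, with 594 and 361 reads (-0.72 ± 0.06). These distances describe position alone. Within 2.5 kb of a start of any transcript lay 39 of the 198 leading peaks and the strongest peak of 4 of the 20 clusters.

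PCDH7, which encodes a protocadherin, overlapped the clusters of rank 5 (695 and 381 reads, -0.87 ± 0.06) and rank 8 (608 and 373 reads, -0.70 ± 0.06). In the cluster of rank 5 the 11 peaks changed almost alike, between -1.11 and -0.77. The cluster between NYAP2 and IRS1, an adaptor of the insulin receptor, had 598 and 333 reads (-0.84 ± 0.06), and 6 clusters in all lay between these genes, with 27 peaks and 1528 reads in control cells. The PDP1 gene, which encodes a phosphatase that activates pyruvate dehydrogenase, overlapped clusters with 602 and 430 reads (-0.48 ± 0.06) and with 515 and 330 reads (-0.64 ± 0.06). In the latter, peaks of 244 and 204 control reads lay outside protein-coding genes, the weaker of them 0.143 kb from a start of a PDP1 transcript. Further leading clusters were KRR1-PHLDA1 of rank 9 (602 and 415 reads, -0.54 ± 0.06), KCNE4-SCG2 (572 and 360 reads, -0.67 ± 0.06), CYTH4 (506 and 327 reads, -0.63 ± 0.06) and STK39, a kinase gene of ion transport (476 and 319 reads, -0.58 ± 0.06).

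The smallest differences among the 20 leading clusters were seen at CAV2 and IER3. CAV2 encodes caveolin 2 of plasma membrane invaginations, and the 14 peaks of its cluster (chr7:116415475-116478504) summed to 525 reads in control cells and 413 after IFN-β, a change of -0.34 ± 0.06. The cluster between IER3, an immediate early gene, and DDR1, a collagen receptor, had 481 and 370 reads (-0.38 ± 0.06) with 3 of 9 peaks above 0. These were followed by the PDP1 cluster of rank 10 (-0.48 ± 0.06) and by the cluster of rank 13 over DDX60L, a helicase gene induced by interferon, and PALLD, an actin-binding protein, with 575 and 409 reads (-0.49 ± 0.06) and 2 of 14 peaks above 0. A start-proximal peak of DDX60L had 144 and 140 reads, a change of -0.04 ± 0.11.

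**Figure D4:**
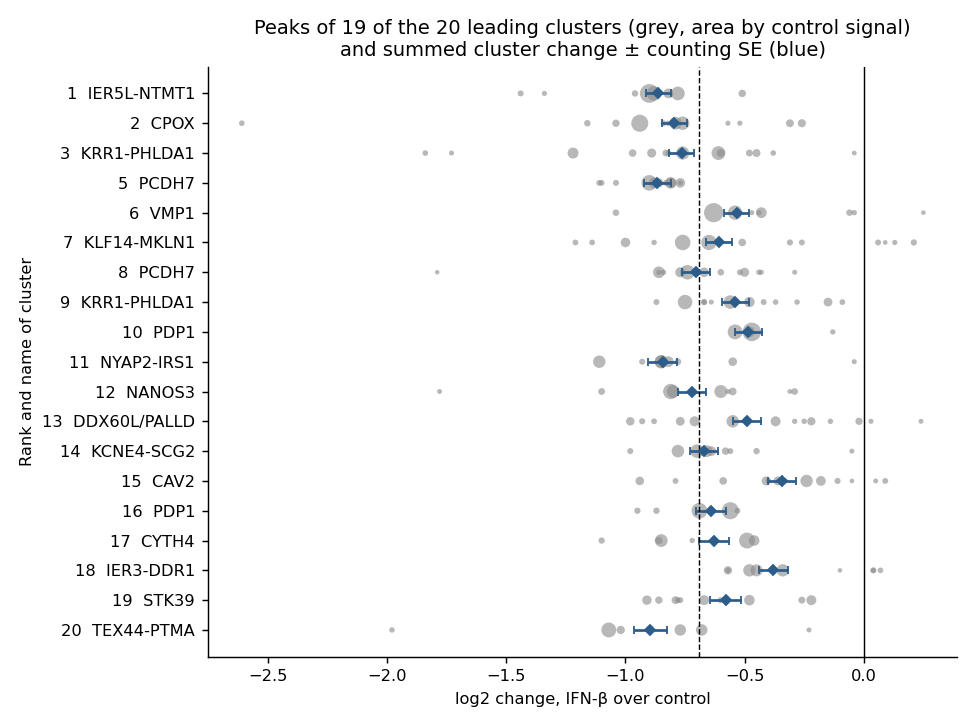
Log2 change of each peak (gray, area by control signal) and of the summed signal (blue diamonds, bars give the counting SE) in 19 of the 20 leading clusters, ordered by rank, with a solid line at 0 and a dashed line at the table median of -0.69. Every diamond is left of 0, between -0.90 (TEX44-PTMA) and -0.34 (CAV2), and 12 gray points are right of 0.

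To find clusters that stood apart with enough reads to be measured, the 244 clusters at or above the median control signal were ranked by change. The highest change was found in MACF1, which encodes a protein that links microtubules to actin (chr1:39386819-39399692). Its 4 peaks summed to 156 reads in control cells and 171 after IFN-β, a change of 0.13 ± 0.10, and 3 of the 4 peaks had changes between 0.17 and 0.18. The second was within MET, which encodes the receptor of hepatocyte growth factor, with 208 reads in control cells and 210 after IFN-β (0.01 ± 0.09). In MET 5 of 6 peaks were above 0, and the exception was a peak of 48.8 and 30.7 reads (-0.67). Both values are near 0 in view of the counting SE, and they were 0.82 and 0.70 above the table median.

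Of the other clusters with the highest changes, SPATS2 had 225 and 213 reads (-0.08 ± 0.09), and its printed peak had 27.47 and 44.02 reads (0.68 ± 0.22). WLS-RPE65, beside the gene for a carrier of Wnt ligands, had a change of -0.14 ± 0.11. TIAM1, a Rac exchange factor gene that holds the sole cluster of chromosome 21, had -0.15 ± 0.10, and SMNDC1-DUSP5, beside a phosphatase gene that ERK signaling induces, had -0.15 ± 0.08. The cluster of rank 136 between KLF14 and MKLN1 had -0.15 ± 0.09, unlike the leading cluster between the same genes (-0.61 ± 0.05). MCPH1/ANGPT2, PHLDB2 and MYO16-IRS2 followed with -0.16 ± 0.08, -0.19 ± 0.09 and -0.19 ± 0.10. The peaks of TIAM1 were alike, between -0.21 and -0.12, whereas those of MYO16-IRS2 ranged from -0.75 to 0.89.

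At the other end, the lowest change in these 244 clusters was found between MMP16 and RIPK2, a kinase of NOD receptor signaling (chr8:89534681-89546960). Its 4 peaks summed to 155 reads in control cells and 69.6 after IFN-β, a change of -1.16 ± 0.13, and the peaks lay between -1.37 and -0.88. BCOR, which encodes a transcriptional corepressor, held a cluster with 150 and 73.3 reads (-1.03 ± 0.12), and SMIM2-SERP2 had 128 and 63.4 reads (-1.01 ± 0.13). Further lowest clusters were KIF20B-HTR7 (-0.99 ± 0.12), PPP3CA, the gene of the calcineurin catalytic subunit (-0.96 ± 0.08), ASL-CRCP (-0.94 ± 0.12), PWWP2B-INPP5A (-0.93 ± 0.14), VPS13D (-0.92 ± 0.11) and NXN (-0.90 ± 0.10). No peak of these clusters was above 0.

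**Figure D5:**
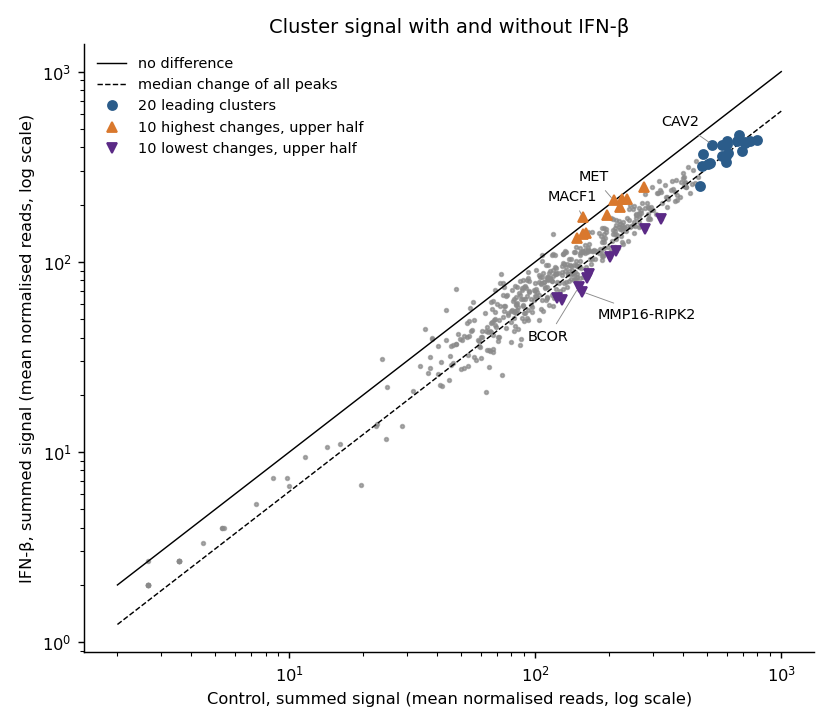
Summed signal after IFN-β against summed control signal (mean normalized reads, both axes logarithmic) for the 487 clusters, with a solid line for no difference and a dashed line for the table median of -0.69. The 20 leading clusters (blue) lie under the solid line, MACF1 and MET are the triangles on or above it, and MMP16-RIPK2 and BCOR lie under the dashed line.

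Among the clusters with the most peaks, DIPK2B-KRBOX4 on chromosome X held 18 peaks over the host gene of MIR221 and MIR222, which lay 1.44 kb and 0.586 kb from its edge. Its summed signal was 298 reads in control cells and 249 after IFN-β (-0.26 ± 0.08), with 6 of 18 peaks above 0. The strongest of these peaks held 13.2% of the signal, so that acetylation there was spread over many weak peaks. The clusters with the widest range of peak changes among the 244 stronger clusters were, beside CPOX and the PHLDA1 cluster of rank 175, GPRC5A, GNG7 and RNF141. GPRC5A, an orphan receptor gene, ranged from -1.57 to 0.73, and GNG7, a G protein subunit gene, ranged from -0.93 to 1.70, the latter in a peak of 4.11 and 13.4 reads. RNF141 ranged from -1.98 to 0.18.

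Interferon-stimulated genes were counted from a list that does not hold DDX60L. Of its 95 genes, 2 (2.11%) flanked or overlapped a cluster, beside 835 of all 19418 protein-coding genes (4.30%). The cluster near IRF1, an interferon-induced transcription factor, had 43.2 and 39.0 reads (-0.14 ± 0.20) with 2 of 3 peaks above 0.

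Genes of RAS and ERK signaling and of growth factors were often beside a cluster, as were genes of other lists. Of 35 listed genes 13 (37.1%) flanked or overlapped a cluster, against 4.30% of all protein-coding genes. The share was 33.3% for AP-1 and immediate early genes, 31.0% for TGF-β, BMP and YAP genes and 22.2% for housekeeping and metabolism genes. Of the 11 lists, chosen with earlier results of these data known, only that of interferon-stimulated genes lay below 4.30%. The 22 clusters of the RAS and ERK list had a median change of -0.40. Of these 22, 21 (95.5%) lay above the table median, as did 71.9% of all clusters. Several genes shared this count, as PHLDA1 had 5 clusters, and ERRFI1 and AREG had 4 each. Taken by gene, the median change lay above the table median for 13 of 13 genes, from SPRY4 (-0.67), a feedback inhibitor of ERK signaling, to MET (0.01). SPRY4 lay near that median in view of its counting SE of 0.07, and AREG and EREG shared clusters. The same count was 12 of 13 for adhesion, junction and cytoskeleton genes and 5 of 6 for epithelial and intestinal transcription factors. It was 7 of 11 for AP-1 and immediate early genes, 4 of 8 for housekeeping and metabolism genes and 3 of 6 for Wnt targets. The share by gene was not taken over all genes beside a cluster, and 71.9% is a share of clusters. These counts by gene thus stand without a share to set them against. ERRFI1, an inhibitor of the EGF receptor, had 1202 and 911 reads over its 4 clusters, which ranged from -0.57 to -0.25. Those of AREG, a ligand of that receptor, ranged from -0.44 to 0.07, the highest being the 3 peaks between EREG and AREG with 54.2 and 57.0 reads (0.07 ± 0.17). EGFR itself had a weaker cluster of 90.7 and 63.9 reads (-0.50 ± 0.14).

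The larger of the other lists lay close to the median cluster or below it. Wnt and β-catenin targets, of interest because HCT116 carries a mutated β-catenin gene, had 6 of 32 genes beside 11 clusters with a median of -0.66, of which 6 lay above the table median. Of these, MYC had 3 clusters between -0.89 and -0.56, TCF7L2 had 3 between -0.80 and -0.44, and SOX9 had 2 at -0.45. The clusters of MYC were spread over 1919 kb between MYC and GSDMC, so that not all of them lay near the gene. The AP-1 and immediate early list had 11 of 33 genes and 13 clusters (-0.56). Its low was -1.54 ± 0.20, in a cluster of 73.5 and 25.4 reads that KLF4 flanks from 510 kb away. Its high was -0.16 ± 0.14, in a cluster flanked by KLF5. Adhesion, junction and cytoskeleton genes had 13 of 72 genes and 18 clusters (-0.55).

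Smaller groups followed. TGF-β, BMP and YAP genes had 9 of 29 genes and 11 clusters (-0.54), among them 0.25 ± 0.14 between SMAD6 and SMAD3 and -1.15 ± 0.17 beside SKI. NF-κB and inflammatory genes had 5 of 34 genes and 5 clusters (-0.61), from -1.001 ± 0.18 in IL6R to 0.24 ± 0.11 in BCL2L1, which encodes an inhibitor of apoptosis. Epithelial and intestinal transcription factors had 6 of 49 genes and 6 clusters (-0.27), from -0.83 ± 0.09 beside ELF3 to 0.32 ± 0.20 beside EHF, p53 targets had 2 of 24 genes (-0.39), and housekeeping and metabolism genes had 8 of 36 genes and 9 clusters (-0.77). Genes of other cell types, fixed as a check of the cell line label, had 2 of 32 genes, NEUROD1 and PTPRC, beside 3 clusters (-0.53). This share of 6.25% was not below the 4.30% of all protein-coding genes, so that the count gives no backing to the label.

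Of the 16 clusters above 0, 14 were below the median control signal. The highest was between ARRDC3 and NR2F1 on chromosome 5, with 47.8 and 71.7 reads (0.59 ± 0.17) and all 3 peaks above 0. The NF2 cluster, in the gene of the tumor suppressor merlin, had 43.2 and 56.1 reads (0.38 ± 0.18), also with all 3 peaks above 0. These clusters fell outside the rule by which others are named and were chosen after their values were seen.

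Clusters often occurred side by side. Of the 487, 143 lay within 100 kb of another cluster, and 50 pairs of flanking genes enclosed 2 or more clusters, 120 in total. Beside KRR1/PHLDA1 and NYAP2/IRS1, PCDH7/ARAP2 held 4 clusters with 1703 reads in control cells, MSRB3/HMGA2 held 4 with 1173 and DIPK2B/KRBOX4 held 4 with 790. The share of distal peaks in clusters differed among chromosomes, from 2.80% of 107 on chromosome 21 to 38.5% of 200 on chromosome X, where 3 of the 12 clusters, PLS3-AGTR2 with its 16 peaks among them, stood at the lowest value throughout, with 36.2% on chromosome 8 and 35.1% on chromosome 12. The median change of clusters was -0.59 on chromosome 8 and -0.47 on chromosome 12.

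The nearest coding gene with an H3K27ac peak at its start was compared with the cluster where there was one. This was the case for 373 clusters, at a median distance of 38.3 kb. The median change was -0.54 for these clusters and -0.72 for the peaks at the starts, and the cluster was the higher of the pair in 267 (71.6%). Across these 373 clusters, which share 328 genes and all libraries, the changes of cluster and start had a Pearson r of 0.26 and a Spearman rho of 0.24. For example, the start of MET had 99.0 and 70.5 reads (-0.49 ± 0.14) against 0.01 for its cluster, and that of CAV1 had 152 and 93.7 reads (-0.70 ± 0.12) against -0.34 for the CAV2 cluster. At BCOR, start and cluster were alike (-1.01 ± 0.15 and -1.03 ± 0.12).

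Sequence features were counted as exact matches on either strand within 500 bp of the peak center. The AP-1 site (TGAGTCA) was found in 39.8% of clustered peaks, 51.7% of other distal peaks, 11.5% of start-proximal peaks and 27.3% of all peaks, and 411 of the 487 clusters held at least 1. The lower share in clustered than in other distal peaks was seen in each of 5 bins of control signal, with 27.9% against 43.1% in peaks under 10 reads and 46.4% against 49.9% in those of 80 or more. It was also seen in each of 6 bins of GC content, with 46.7% against 63.1% between 40% and 45% GC. The gap was small in some bins, with 47.5% against 48.9% between 40 and 80 reads. It was 41.8% against 42.7% between 55% and 60% GC, and 19.4% against 21.6% at 60% GC or more. Clustered peaks with the site had a median control signal of 28.8 reads and a median change of -0.54, against 20.4 reads and -0.52 without it.

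The ISRE core, a pair of GAAA parted by any 2 bases, was found in 15.5% of clustered peaks, 15.4% of other distal peaks, 8.85% of start-proximal peaks and 11.6% of all peaks, and 224 clusters held at least 1. It was then counted in each class for peaks above 0 and for the rest, and differences between the classes were not tested. Only peaks with at least 10 control reads were taken, which leaves out peaks that rose from fewer reads. Without this filter, 9.40% of clustered peaks with the core and 9.20% of those without it were above 0. Among peaks with at least 10 control reads, the core was found in 18 of 111 clustered peaks above 0 (16.2%). It was found in 259 of the other 1635 (15.8%). The shares were 21.3% and 14.7% for other distal peaks and 32.6% and 8.22% for start-proximal peaks. The median GC content was 43.4% and 44.6% in clustered, 42.05% and 48.0% in other distal, and 56.1% and 64.3% in start-proximal peaks above 0 and not above 0, and its part in these shares was not tested. In the 20 leading clusters the core was found in 35 of 198 peaks (17.7%).

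The other motifs are given for clustered and then for other distal peaks. The GAS element (TTCNNNGAA) was found in 30.3% and 26.2%, TCF sites (CTTTGAA or CTTTGAT) in 33.2% and 30.2%, TEAD (GGAATGT) in 16.7% and 14.6%, FOX (TGTTTAC) in 14.7% and 13.1%, CDX (TTTATGG) in 13.5% and 12.0%, RUNX (TGTGGTT) in 16.6% and 16.9%, and HNF4 (CAAAGTCCA) in 1.80% and 1.31%. Motifs rich in G and C were rarer in clustered than in other distal peaks, namely the GC box (GGGCGG) with 27.6% against 39.5%, ETS (CCGGAAG) with 6.56% against 10.0%, and the E-box (CACGTG) with 13.0% against 13.9%. Over all peaks the shares were 21.8% for GAS, 20.9% for TCF, 10.8% for TEAD, 9.68% for FOX, 8.14% for CDX, 11.8% for RUNX, 1.05% for HNF4, 67.3% for the GC box, 20.9% for ETS and 17.9% for the E-box. A match is a description of the letters, and binding was not measured.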

How the data were processed

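H3K27ac ChIP-seq was analysed from HCT116 CMV-osTIR1 RAD21-mAC cells with and without IFN-β, with 2 libraries per group and 1 input. The authors trimmed reads with fastp (0.19.3 per the submitters' processing notes, which also name bcl2fastq 2.17), aligned them to GRCh38 with Bowtie2, called peaks with MACS2, and merged and counted them in DiffBind with DESeq2. The deposited table gives, per peak and group, a log2 value of mean normalized reads, scaled for library size by the authors. It also holds the authors' overall mean, fold change, p-value and FDR, which were not used. With group means alone, no SD, paired value or test was possible, and the table itself gives no depth per library. Nothing in the labels says whether the 2 libraries of a group came from separate cultures.

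Group means were returned to a linear scale, and peaks were joined, summed and annotated with GENCODE release 44 on GRCh38 (Python 3.11.15, numpy 2.4.6, pandas 2.3.3, scipy 1.17.1, matplotlib 3.10.9). The joining of peaks was tested on simulated data. All peaks lay inside the reference for 23 of 23 chromosomes. The lowest values, -0.17 in control cells (492 peaks) and -0.59 after IFN-β (507 peaks), were read as 1 read per library to estimate the counting SE, which covers counting error only. Low values were kept and no pseudocount was added. GC content and 12 motifs were counted within 500 bp of peak centers.

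Clusters named in the text were the 20 with the highest control signal, the 10 with the highest and the 10 with the lowest change among those at or above the median control signal, the 5 with the most peaks, the 5 with the widest range of peak changes among the same clusters, and those beside an interferon-stimulated gene. Other clusters are named from 11 gene lists or, where stated, after their values were seen. The members and lists were chosen with earlier results of these data known. Peaks on contigs outside chromosomes 1 to 22 and X were left out of the clusters. Some clusters and sequences that fall under these rules are not reported here.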

Additional observations from a re-analysis of the deposited data

How the results depend on the processing

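No paired analysis was possible because the table holds only group means, and for the same reason leaving out each replicate could not be run. A value is given here where it left its 95% binomial or order-statistic interval, or, for a count, where it moved by over 1.5 times. With a join gap of 5 kb there were 291 clusters with 1068 peaks, 15.0% of the distal control signal and a median GC content of 44.35%. With a gap of 25 kb the share of signal was 41.4%, the median change -0.58 and the GC content 45.7%. With 2 or more peaks per cluster there were 1348 clusters with 3780 peaks, 51.5% of the signal, 72 above 0, 66.3% above the table median and a GC content of 45.6%. With 4 or more there were 239 clusters with 1314 peaks, 20.4% of the signal, 2 above 0, 77.4% above the table median and a GC content of 44.3%. The GC content was 45.7% with distal peaks beyond 1 kb, 46.1% with gene-level coding starts (28.0% of the signal) and 43.6% with the starts of all transcripts (28.8% of the signal). Without peaks under 10 reads in both groups, 28.4% of the signal was clustered, 10 clusters were above 0 and the GC content was 44.1%. Without the strongest peak of each cluster 32 were above 0. After centering on the table median 350 were above 0 and the median of the 20 leading clusters turned to 0.0348. Within 250 bp the ISRE core was found in 8.70% of clustered peaks. The cause of these shifts was not tested beyond the construction of each setting. The median cluster change stayed within its interval under the other 12 settings tried for it.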
